A study of Mus musculus with 18 samples.

Results

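The 125 miRNAs described here are the mature miRNAs with a miRBase number of 1000 or more that were detected in mouse NIH 3T3 fibroblasts grown on soft or stiff gels, with or without an intact link between nucleus and cytoskeleton. They were selected on their measured values: a member had a normalized value of at least 10 in at least 3 of 18 small RNA libraries, lay outside the imprinted miRNA cluster on chromosome 12, and was counted once per mature name, through the copy of highest mean. Among 1900 mature names listed, 1060 carried such a late number, and 125 of these, 11.8%, were members. Of the 840 earlier names 42.4% passed the same cut, which gave 356 miRNAs, so that 481 were tested in all. None of the 17 late names inside the excluded region reached these values. Of the remaining 918 late names 459 never rose above the floor of the table in any library.

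Every line was a stable retroviral TetON line induced with doxycycline at 1 µg/ml for 48 h. SUN1L cells made SS-HA-SUN1L-KDEL, a luminal part of SUN1 kept in the endoplasmic reticulum that acts as a dominant negative against the LINC complex, in which SUN and KASH proteins join across the nuclear envelope. KDEL cells made SS-GFP-KDEL, the control protein, and were further enriched by fluorescence sorting, which SUN1L cells were not. The 6 groups, with 3 libraries each, were SUN1L cells on 308 kPa, SUN1L cells on 1 kPa, KDEL cells on 308 kPa treated with blebbistatin at 10 µM (which blocks myosin II), KDEL cells on 308 kPa treated with Y27632 at 25 µM, KDEL cells on 308 kPa, and KDEL cells on 1 kPa. All gels were polyacrylamide coated with fibronectin, and drugs were given for 48 h.

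A miRNA is a single-stranded RNA of little more than 20 bases that guides Argonaute to messenger RNAs, mainly through its seed, bases 2 to 8. miRBase numbers follow the order in which sequences were submitted, so late numbers mostly came from deep sequencing and include many scarce species. Apart from the classical route through Drosha and Dicer, other sources of such small RNAs are known, and 2 of them were looked for here. Mirtrons are short introns that fold into a hairpin once spliced, so that their arms begin or end at splice sites and the 3p arm ends in the AG of the intron. Small nucleolar RNAs (snoRNAs), which guide the modification of ribosomal RNA, and their Cajal body relatives (scaRNAs) can also be cut into fragments of miRNA size.

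Both features were present among the members. A mature sequence from RefSeq (GRCm38.p6) matched 105 of the 125 by name and position, and 97 could also be placed by an exact match of the hairpin on NCBIM37 and read against its gene annotation on the same strand. Of these 97, 14 lay over an annotated snoRNA or scaRNA, against 3 of 301 earlier-numbered miRNAs. They included 7 of the 10 most abundant members. These 6 are shown because they are the most abundant arms of that kind at 6 loci and held 44.6% of the members' summed mean, with the seed in capitals, 5′ to 3′:
miR-1839-5p: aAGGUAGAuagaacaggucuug
miR-3535: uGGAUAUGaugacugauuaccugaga
miR-3068-5p: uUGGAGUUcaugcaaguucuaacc
miR-1843a-5p: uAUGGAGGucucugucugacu
miR-1843b-5p: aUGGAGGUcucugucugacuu
miR-1291: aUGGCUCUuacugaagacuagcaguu

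miR-3535 (chr1:86352062-86352087, minus strand, GRCm38) lay over SNORD20 in an intron of Ncl, which encodes the nucleolar protein nucleolin. miR-1839-5p (chr7:81529919-81529940, plus strand) lay over a snoRNA in an intron of 2900076A07Rik. miR-3068-5p and miR-3068-3p lay over SNORA58 within Alkbh1, miR-1843a-5p and miR-1843a-3p over Scarna3b within Dcaf5, miR-1843b-5p over Scarna3a within Rfwd2, and miR-1291 over Snora34. The others were miR-5121 over Snord33 in Rpl13a, a ribosomal protein gene, both arms of miR-3069 over Scarna13, both arms of miR-3084 over SNORA19 in Cbwd1, and miR-6516-5p over SCARNA16. miR-1843a-5p and miR-1843b-5p are the same sequence read 1 base apart, so their values may share reads and are uncertain as separate species. The annotation records position only, and no value here tells a miRNA from a fragment of its host RNA.

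The splice-site feature was at the other end of the abundance range. Among 63 placed members that were 3p arms or carried no arm name, 24 (38.1%) ended within 2 bases of the end of an annotated intron, 19 of them exactly, against 3 of 160 earlier miRNAs (1.88%). Late-numbered miRNAs below detection ended there in 165 of 454 cases (36.3%), a share close to that of the members. Of the 24, 20 were numbered 6000 or more, and the host introns of the 24 ran from 74 to 36267 bases, with 12 of them up to 150. The following 4 are shown with the last 2 bases in capitals, because these are the letters of the intron end:
miR-6944-3p: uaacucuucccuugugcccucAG
miR-7091-3p: aguggcuucugucgucucuAG
miR-1982-3p: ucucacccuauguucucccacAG
miR-7226-3p: ugacacagccauucucugagcAG

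Their host introns lay in Dbn1 (drebrin, which binds actin filaments), Dnase1l1, Oaz1 (ornithine decarboxylase antizyme) and Ptprf (a receptor tyrosine phosphatase), with intron lengths of 96, 79, 74 and 112 bases in that order. The sequence itself ended in AG in 20 of 69 3p or unnamed members (29.0%), against 5 of 171 earlier miRNAs (2.92%). Among members numbered 6000 or more the share was 17 of 27 (63.0%). A further 3 members were 5p arms that began exactly at an intron start, which brought the number at a splice site to 27.

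**Figure D1:**
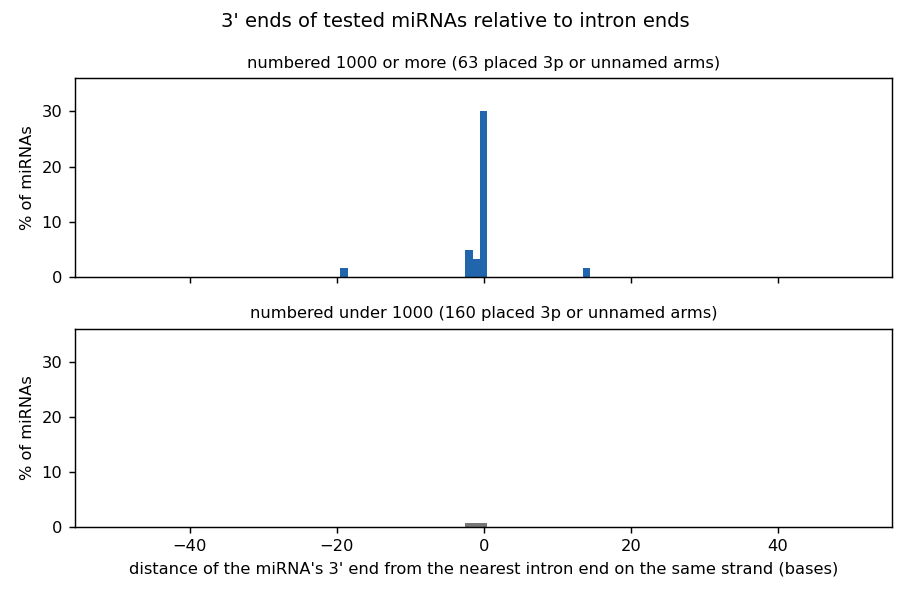
Distance in bases from the 3′ end of each placed 3p or unnamed miRNA to the nearest intron end on the same strand, as a percentage of miRNAs, for the 63 members (upper panel) and the 160 earlier-numbered miRNAs (lower panel). The members have a peak at the intron end, where 24 of 63 fall within 2 bases, against 3 of 160 below.

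The remaining sequence features were less distinctive. Members were 20 to 26 bases long with a median of 22, and their median GC content was 52.4%, against 47.6% in the 322 earlier miRNAs with a sequence. All 105 seeds differed from each other. A single one, that of miR-6932-3p, was shared with earlier miRNAs of the table that passed the cut (miR-26a-2-3p and miR-26b-3p). Another 3 members overlapped an earlier hairpin on the opposite strand: miR-3074-1-3p lay opposite miR-24-1, miR-3074-5p opposite miR-24-2 and miR-3107-5p opposite miR-486. The following 8 members, whose levels are compared between groups below, are shown with the seed in capitals:
miR-1981-5p: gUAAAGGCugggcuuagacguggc
miR-1964-3p: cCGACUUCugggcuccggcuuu
miR-1983: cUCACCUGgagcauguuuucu
miR-3109-5p: aAUGGAUGcgaugguucccaugcu
miR-1198-3p: aAGCUAGCcucuaacucauggc
miR-1934-5p: uCUGGUCCccugcuucguccucu
miR-1934-3p: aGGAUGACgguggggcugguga
miR-3110-5p: uUCUGCCUccccugaaggcuc

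miR-1981-5p starts at the first base of an 82-base intron of Mosc2. miR-1964-3p lies in an intron of Zfp84, miR-3109-5p in one of Anxa2 (annexin A2, a calcium-dependent membrane-binding protein) and miR-1198-3p in one of Gripap1. miR-1983, both arms of miR-1934 and miR-3110-5p lie outside annotated genes on their strand. Nuclear transfer RNA genes were not among the small RNA types looked for. miR-5099, also described below, is at chr12:36816250-36816269 on the plus strand.

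Values are on the normalized scale of the deposited table, in which 1 is the floor given to a miRNA with no read and 1 read was worth 0.666 to 1.55, depending on the library. Members were scarce: the median of their mean values was 17.9, against 471 for earlier miRNAs. Only 4 members averaged over 1000, 14 lay between 100 and 1000, 70 between 10 and 100, and 37 under 10, and the 10 most abundant held 70.4% of the members' summed mean. Those were miR-1839-5p (2193), miR-3535 (1339), miR-1981-5p (1297), miR-1983 (1086), miR-3068-5p (760), miR-1843a-5p (708), miR-3068-3p (540), miR-1843b-5p (536), miR-1964-3p (495) and miR-1291 (369). Since levels served to choose the members, these values are a description. miR-1839-5p spanned a 3.08-fold range, with 2538, 3093 and 2829 in SUN1L cells on 308 kPa, 1834, 1572 and 1978 in SUN1L cells on 1 kPa, 2058, 1924 and 1005 with blebbistatin, 2844, 3020 and 3063 with Y27632, 2041, 2315 and 2023 in KDEL cells on 308 kPa and 1710, 1785 and 1838 in KDEL cells on 1 kPa. The Cajal body member miR-1843a-5p ranged from 183 to 1150 and miR-1291 from 225 to 676. miR-1983 ranged from 14.2 to 2941, the widest among the 10.

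Abundance differed with genomic place. The 14 members over snoRNAs had a median mean value of 231.5 and the 27 at splice sites one of 9.19, with 4 of those 27 over 30 (miR-1981-5p, miR-6944-3p at 256, miR-1981-3p at 91.8 and miR-7091-3p at 38.8). The 56 placed elsewhere had a median of 19.4 and the 28 not placed one of 17.5. Members made up 39 of 114 names numbered in the 1000s, 0 of 4 in the 2000s, 39 of 144 in the 3000s, 4 of 68 in the 5000s and 43 of 713 from 6000 on. By arm there were 67 3p, 40 5p and 18 unnamed members.

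**Figure D2:**
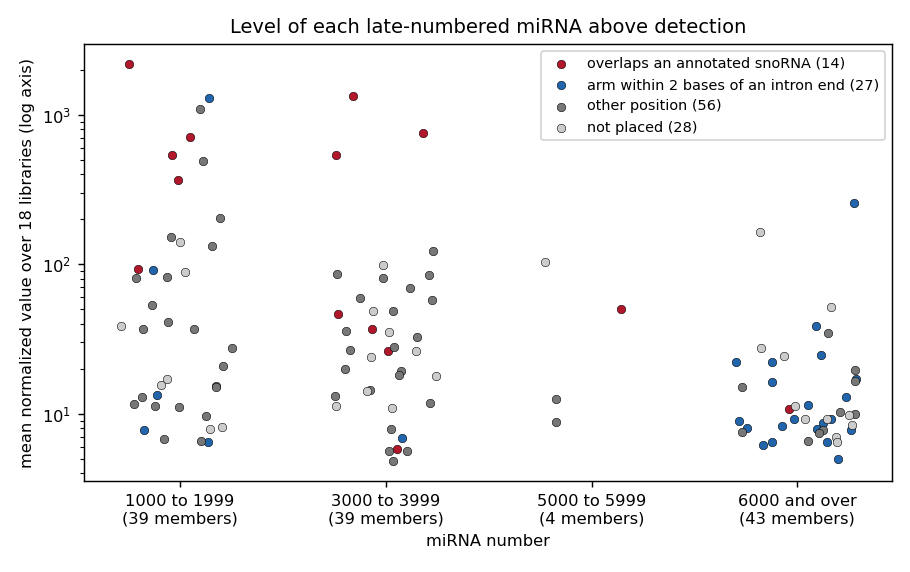
Mean normalized value over 18 libraries (log axis) of each of the 125 members, by miRNA number, coloured by genomic place: over a snoRNA (14), at a splice site (27), elsewhere (56) or not placed (28). The snoRNA members reach 2193 and the splice-site members mostly lie near 10.

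Detection itself was broad. A value of at least 10 was reached in all 18 libraries by 36 members, in 17 or more by 48, in fewer than 9 by 36 and in exactly 3 by 7. In each of the 6 groups at least 1 library reached it for 69 members. No member reached it in SUN1L libraries alone, 6 did so in KDEL libraries alone, and 25 did not reach it in any 1 kPa library. Just inside the cut lay miR-3112-5p, miR-7032-3p and miR-6911-3p, which had values of 12.3, 10.0 and 11.6 in the lowest of the 3 libraries that let them in. Just outside it lay miR-8106, miR-7070-5p and miR-7679-5p, with 2 libraries over 10 each and 9.99, 9.62 and 9.62 in the next.

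The libraries held 1361360 to 8485822 miRNA reads, and the members took 0.191% to 0.402% of them in 17 libraries. The shallowest, blebbistatin library 3, stood apart, with 0.732% of its reads in members. Its rank correlation with the 2 others of its group averaged 0.779 (Spearman). It gave the lowest value for 76 members and 294 earlier miRNAs, and the highest for 9 and 7. The next shallowest, SUN1L library 2 on 1 kPa, had 2765837 reads. Members took 0.402% of them, against 0.283% and 0.232% in the others of its group. Its median for earlier miRNAs was 84.8, against 202 and 213. That SUN1L library was kept in the fits below unless stated, and often gave the extreme value of its group. Counts of calls in every comparison below are therefore given with and without blebbistatin library 3. For several single members only the adjusted p without it is given. Of the marker miRNAs, all 6 of a fibroblast list were tested and their summed value ranged from 502459 to 2901220. In a blood list 3 of 5 were in the table under the name searched, and none of these passed the cut. The listed miR-486a-5p was not matched to miR-486-5p, which is in the table and passed the cut. In the other lists 4 of 5 epithelial, 2 of 3 muscle and 1 of 2 neural markers passed, with summed values of at most 611, 1378 and 24175. Their part in the results was not tested. In bulk RNA, fewer cells of a kind and less of an RNA per cell cannot be told apart.

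The first comparison sets SUN1L against KDEL cells on soft gels. These were separate stable lines and only KDEL cells were sorted. In every SUN1L against KDEL comparison, LINC disruption therefore cannot be told apart from line or sorting. With all 18 libraries, limma on log2(value + 1) called 0 of 125 members at an adjusted p under 0.05 in SUN1L against KDEL cells on 1 kPa. Of all 481 miRNAs 2.7% were called. Unadjusted p-values were under 0.05 for 9 members, and on reads recovered from the values edgeR called 0 members and DESeq2 4. Without blebbistatin library 3, which belongs to neither group but enters the shared estimate of spread, 5 members were higher in SUN1L cells and 23 lower, 28 in all, beside a background of 43.9% called (6.65% higher, 37.2% lower). The share of members called lower, 23 of 125, was below that background. Members were scarcer than earlier miRNAs, and this scale shrinks the changes of scarce miRNAs, so these shares are not like for like. The library numbers in the titles were cut here into 3 consecutive runs, each holding 1 library of every untreated group. The labels themselves name no batch. With the run as a covariate in the 12 untreated libraries 28 members were called, beside 48.0%. All SUN1L libraries on 1 kPa lay under all KDEL libraries on 1 kPa for 29 members and for 199 of all 481 miRNAs. They lay above them for 9 members and for 43 of all 481.

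That split depended on scaling. The members' median log2 fold change was −0.31 on the deposited scale, against −0.81 for earlier miRNAs and −0.68 for all 481, so most of the table was lower in SUN1L cells on 1 kPa. After median-of-ratios scaling the medians were 0.31, −0.15 and −0.01, and 26 members were called higher and 5 lower, where all miRNAs had 17.7% and 20.8%. Under both scalings the median member lay above the median of all miRNAs. Without SUN1L library 2 on 1 kPa the members' median on the deposited scale was −0.09.

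In 1 direction under all 4 scalings (deposited, median-of-ratios, quantile and edgeR), without blebbistatin library 3, 9 members were called. Higher in SUN1L cells were miR-3535, miR-1981-5p, miR-1964-3p, miR-5099 and miR-3474, out of 31 such miRNAs in the whole table. miR-3535, the Ncl intron member, had 2793, 3615 and 1993 in SUN1L cells on 1 kPa, against 1497, 1123 and 858 in KDEL cells on 1 kPa. The groups did not overlap, and the log2 fold change was 1.27 ± 0.29 (SE, limma adjusted p = 0.00226). With all 18 libraries the same fold change had an adjusted p of 0.214. miR-5099 had 145, 212 and 192 in SUN1L cells, against 83.8, 101 and 86.2 in KDEL cells (1.00 ± 0.30, adjusted p = 0.0123, and 0.431 with all libraries). It too was higher in each SUN1L library than in any KDEL library on 1 kPa.

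miR-1981-5p, from the start of the Mosc2 intron, had 1038, 2842 and 1767 in SUN1L cells, against 942, 774 and 559 in KDEL cells. miR-1964-3p had 431, 1227 and 718 in SUN1L cells, against 292, 444 and 379 in KDEL cells. In both, SUN1L library 2 was the highest of the 6, and for miR-1964-3p the groups overlapped. Log2 fold changes were 1.22 ± 0.34 for miR-1981-5p (adjusted p = 0.00857, and 0.431 with all libraries) and 0.98 ± 0.33 for miR-1964-3p (0.0237, and 0.434 with all libraries). miR-3474 rested on few reads, 20, 25 and 30 in SUN1L cells against 16, 11 and 4 in KDEL cells (1.41 ± 0.45, adjusted p = 0.0181).

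Lower in SUN1L cells on 1 kPa under all 4 scalings were miR-1934-5p, miR-3109-5p, miR-1198-3p and miR-7680-3p, out of 76 such miRNAs. miR-3109-5p, from the Anxa2 intron, had 1, 2.37 and 5.33 in SUN1L cells, against 18.4, 12.8 and 20.8 in KDEL cells. These were 0, 2 and 8 reads in SUN1L cells, against 22, 12 and 27 in KDEL cells, with a log2 fold change of −2.37 ± 0.40 (adjusted p = 2.97e-04, and 0.26 with all libraries). miR-1198-3p had 3.11, 1.19 and 4.66 in SUN1L cells, against 16.8, 6.38 and 15.4 in KDEL cells (−1.80 ± 0.39, adjusted p = 0.00167). All 3 SUN1L libraries lay under all 3 KDEL libraries for both, as they did for miR-1934-5p, with 8.29, 3.56 and 14.6 in SUN1L cells against 27.6, 24.5 and 33.9 in KDEL cells (−1.75 ± 0.39, adjusted p = 0.00185). miR-7680-3p had 2, 0 and 2 reads in SUN1L cells, against 7, 7 and 7 in KDEL cells (−1.56 ± 0.35, adjusted p = 0.00194).

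Another 3 differences on the deposited scale were not called under every scaling. miR-3068-5p, over SNORA58, had 227, 103 and 290 in SUN1L cells, against 488, 402 and 426 in KDEL cells on 1 kPa (−1.20 ± 0.31, adjusted p = 0.00462). miR-1930-5p had 12.4, 7.11 and 13.98 in SUN1L cells, against 20.1, 21.3 and 38.5 in KDEL cells (−1.17 ± 0.35, adjusted p = 0.0114). miR-3102-3p.2-3p had 6.22, 1.19 and 7.32 in SUN1L cells, against 12.6, 12.8 and 20.8 in KDEL cells (−1.65 ± 0.41, adjusted p = 0.00398). None of these overlapped between lines, which in that direction was also so for 199 of all 481 miRNAs. After median-of-ratios scaling the fold changes were −0.51 for miR-3068-5p (adjusted p = 0.0553), −0.53 for miR-1930-5p (0.166) and −1.17 for miR-3102-3p.2-3p (0.0112). miR-3102-3p.2-3p was called under 3 of the 4 scalings and missed the threshold by edgeR alone, with −0.97 and an adjusted p of 0.0537.

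On stiff gels no member was called in SUN1L against KDEL cells on 308 kPa. limma called 0 of 125 with all libraries, with 3.12% of all miRNAs called, 4 members at an unadjusted p under 0.05, and 0 by edgeR and by DESeq2. Without blebbistatin library 3 it again called 0, beside 3.74%, with 10 members at an unadjusted p under 0.05 and 0 by edgeR. With the library-number covariate 1 member was called, beside 5.41%. The medians were 0.24 for members and 0.08 for all miRNAs. miR-5099 had 106, 66.7 and 67.3 in SUN1L cells, against 54.4, 94.1 and 60.4 in KDEL cells on 308 kPa, so the groups overlapped. The 3 members of lowest p were miR-1929-5p (log2 fold change −1.35 ± 0.56, adjusted p = 0.616), miR-1224-5p (1.47 ± 0.61, 0.62) and miR-3102-5p.2-5p (0.89 ± 0.40, 0.745). miR-1224-5p, whose first base is that of an 85-base intron of Vwa5b2, had 14.8, 13.6 and 9.62 in SUN1L cells, against 4.66, 1 and 9.16 in KDEL cells, without overlap but at few reads. SUN1L libraries lay entirely above KDEL libraries on 308 kPa for 13 members and for 66 of all 481 miRNAs.

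Stiffness was compared within each line. In SUN1L cells 7 members were higher on 308 kPa than on 1 kPa and none lower by limma with all 18 libraries, where 4.16% of all 481 were called. They were miR-1934-3p, both middle arms of miR-3102 (miR-3102-5p.2-5p and miR-3102-3p.2-3p), miR-1198-3p, miR-7680-3p, miR-3057-3p and miR-3069-5p. Leaving out any 1 of the other 17 libraries gave 2 to 9 calls. Without blebbistatin library 3 70 were called, 63 higher and 7 lower, beside 69.9% of all miRNAs (66.9% higher, 2.91% lower). Here too the members' share, 63 of 125 higher, was below the background, with the same limit that members were scarcer. In the 12 untreated libraries with the library-number covariate 68 were called, beside 70.9%. In SUN1L cells all libraries on 308 kPa lay above all on 1 kPa for 70 members and for 316 of all 481 miRNAs. They lay under them for 6 members and for 17 of all 481.

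Among those 7, miR-3102-5p.2-5p was the most abundant, with 86.5, 78.9 and 61.6 on 308 kPa, against 12.4, 17.8 and 18.0 on 1 kPa, in SUN1L cells (2.17 ± 0.40, adjusted p = 0.00558). miR-1934-3p had 21.6, 16.3 and 11.5 on 308 kPa, against 2.07, 1 and 2.00 on 1 kPa (2.69 ± 0.43, adjusted p = 0.00161). miR-1198-3p had 25.0, 27.2 and 36.5 on 308 kPa, against 3.11, 1.19 and 4.66 on 1 kPa (3.03 ± 0.77, adjusted p = 0.0417). In all 3 the lowest library on 308 kPa was several times above the highest on 1 kPa, although the soft values of the last pair stood for 0 to 7 reads. miR-3102-3p.2-3p had 36.4, 38.1 and 48.1 on 308 kPa, against 6.22, 1.19 and 7.32 on 1 kPa (3.03 ± 0.72, adjusted p = 0.0337), and miR-7680-3p had 12.5, 13.6 and 11.5, against 2.07, 1 and 1.33 (2.48 ± 0.64, adjusted p = 0.0417). miR-3057-3p had 9, 5 and 11 reads on 308 kPa, against 1, 0 and 0 on 1 kPa (adjusted p = 0.0417). miR-3069-5p had no read on 1 kPa and 7, 4 and 9 reads on 308 kPa. Taking a floor of 3 reads per library on 1 kPa, its mean was at least 2.55-fold higher on 308 kPa.

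Scaling again moved the whole table. On the deposited scale without that library the median log2 fold change in SUN1L cells was 0.88 for members, 1.48 for earlier miRNAs and 1.34 for all, and after median-of-ratios scaling it was −0.37, 0.17 and 0.03. Members called then numbered 15 higher and 41 lower, beside 26.4% and 24.3% of all miRNAs. Of the members 22 were called in the same direction under both scalings. miR-1839-5p was called in opposite directions, 0.65 ± 0.21 on the deposited scale (adjusted p = 0.0115) and −0.71 ± 0.21 after rescaling (adjusted p = 0.00919). No direction is given for it here.

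Under all 4 scalings 14 members were higher on 308 kPa in SUN1L cells, of 111 miRNAs, and 7 were lower, of 14 miRNAs. miR-1983 had 2024, 993 and 1385 on 308 kPa, against 303, 41.5 and 156 on 1 kPa (3.47 ± 0.51, adjusted p = 1.75e-05, and 0.088 with all libraries). miR-3068-5p, over SNORA58, had 855, 924 and 984 on 308 kPa, against 227, 103 and 290 on 1 kPa (2.27 ± 0.31, adjusted p = 9.87e-06, and 0.124 with all libraries). Neither overlapped between gels, which in that direction was also so for 316 of all 481 miRNAs. miR-3109-5p had 31.9, 16.3 and 18.3 on 308 kPa, against 1, 2.37 and 5.33 on 1 kPa (2.67 ± 0.40, adjusted p = 2.2e-05), and miR-1934-5p had 44.4, 51.7 and 51.9, against 8.29, 3.56 and 14.6 on 1 kPa (2.53 ± 0.39, adjusted p = 2.74e-05). Both were among the members lower in SUN1L than in KDEL cells on 1 kPa, and the 2 comparisons share the SUN1L libraries on 1 kPa. The 7 lower members were miR-3535, miR-1964-3p, miR-5099, miR-7648-3p, miR-3474, miR-6979-3p and miR-6900-3p. Outside SUN1L cells on 1 kPa, miR-6979-3p reached a value of 10 in 1 library and miR-6900-3p in 2, so both met the cut through the group in which they were high, and their calls carry no weight. miR-3535 had 1460, 1033 and 1180 on 308 kPa, against 2793, 3615 and 1993 on 1 kPa (−1.17 ± 0.29, adjusted p = 0.00174, and 0.0865 with all libraries). miR-7648-3p had 14.8, 16.3 and 6.73 on 308 kPa, against 25.9, 53.3 and 23.3 on 1 kPa (−1.36 ± 0.44, adjusted p = 0.0116, and 0.212 with all libraries).

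**Figure D3:**
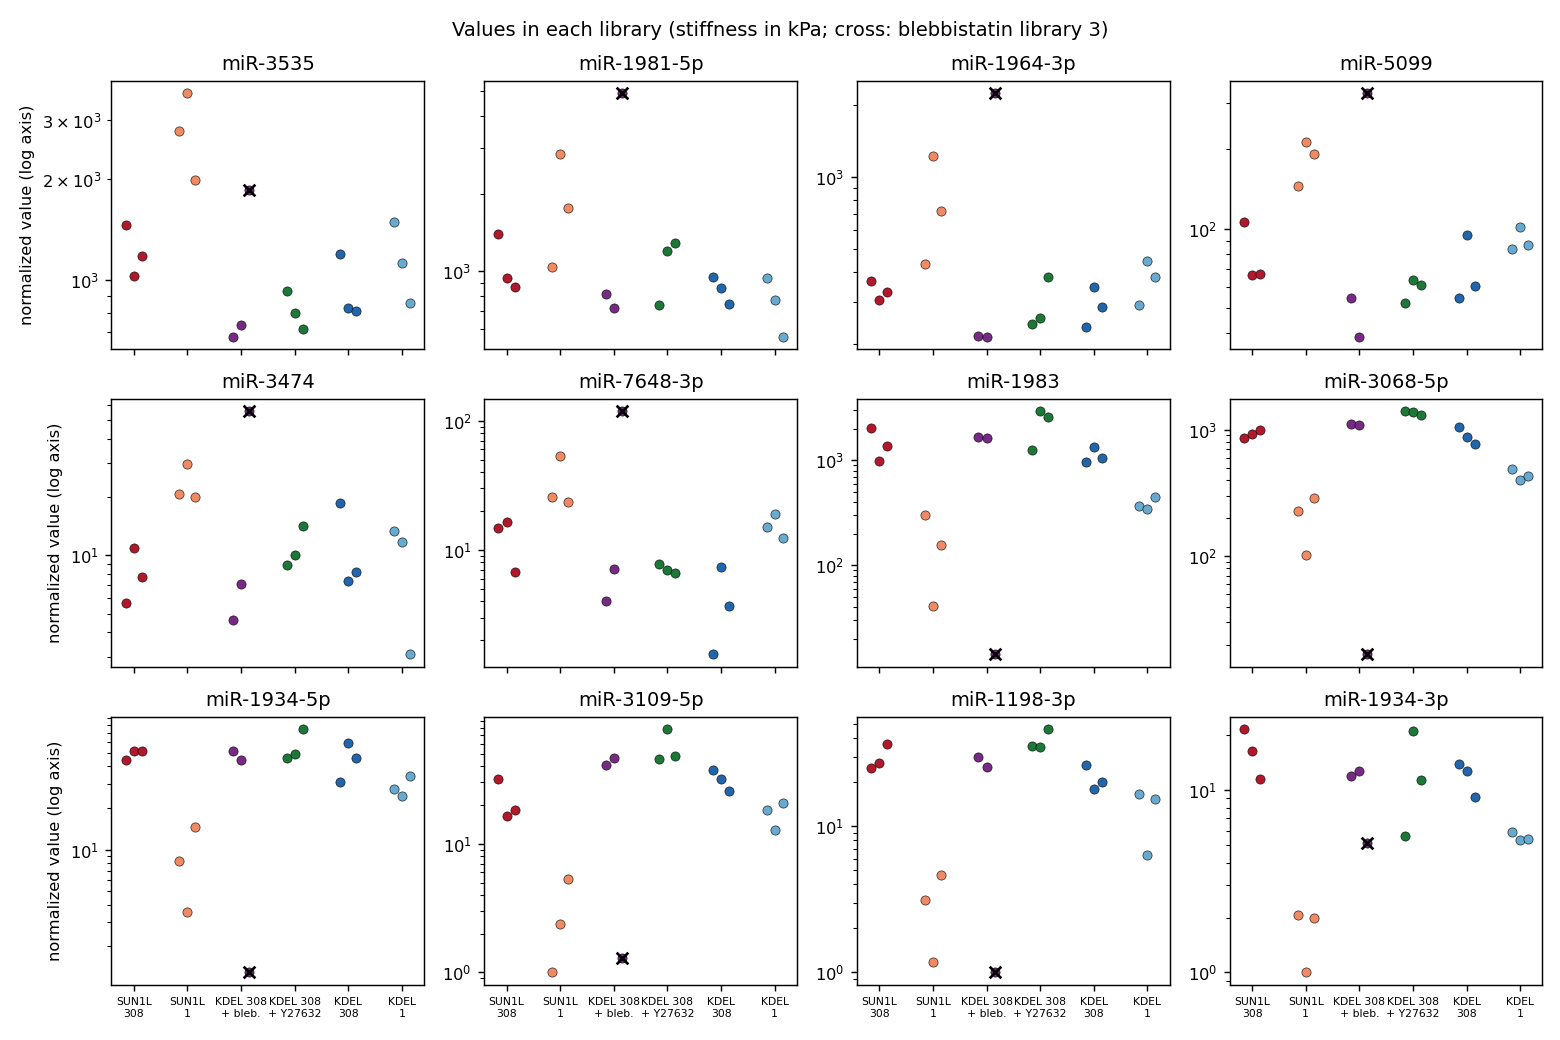
Normalized value (log axis) of 12 members in each of 18 libraries, by group, with a cross on blebbistatin library 3. miR-3535, miR-1981-5p, miR-1964-3p, miR-5099, miR-3474 and miR-7648-3p are high in that library and, by group mean, in SUN1L cells on 1 kPa. For miR-1981-5p and miR-1964-3p, SUN1L library 1 on 1 kPa lies within the range of other groups. The other 6 members are low in SUN1L cells on 1 kPa, 5 of them also in that library (miR-1934-3p had 5.16 there).

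In KDEL cells the same gel comparison called 0 of 125 members by limma with all libraries, where 0.0% of all miRNAs were called, the unadjusted p was under 0.05 for 8 members, and neither edgeR nor DESeq2 called any (0 each). Without blebbistatin library 3 4 were called, beside 7.07%. Higher on 308 kPa were miR-3110-5p, miR-3069-5p and miR-3066-3p. miR-3110-5p had 28.0, 18.0 and 13.7 on 308 kPa, against 8.38, 4.25 and 2.31 on 1 kPa, in KDEL cells (1.88 ± 0.41, adjusted p = 0.0365). The groups did not overlap, but the adjusted p was 0.769 with all libraries and 0.102 after median-of-ratios scaling. In KDEL cells libraries on 308 kPa lay entirely above those on 1 kPa for 31 members and for 196 of all 481 miRNAs. miR-7648-3p was lower, with 1.55, 7.40 and 3.66 on 308 kPa, against 15.1, 19.1 and 12.3 on 1 kPa (−1.81 ± 0.44, adjusted p = 0.0390). It was also called after median-of-ratios scaling (−2.31 ± 0.53, adjusted p = 0.0246) and by edgeR (adjusted p = 0.0411), but its adjusted p with all 18 libraries was 0.769.

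In the 12 untreated libraries the library-number covariate gave 13 calls in KDEL cells, 11 higher and 2 lower on 308 kPa, beside 20.4% of all miRNAs, and its absence gave 0. The other members called without blebbistatin library 3 were scarcer. miR-3066-3p had 12.4, 14.8 and 18.3 on 308 kPa, against 4.19, 6.38 and 6.93 on 1 kPa (1.25 ± 0.35, adjusted p = 0.0423). miR-3069-5p, over Scarna13, had 4.66, 4.23 and 4.58 on 308 kPa, against 1, 1.06 and 1.54 on 1 kPa, which were 3 to 5 reads against 0 to 2 (1.33 ± 0.34, adjusted p = 0.0390). Neither was called after median-of-ratios scaling, with adjusted p of 0.238 and 0.141.

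Both lines thus had the median member higher on stiff gels on the deposited scale, 0.88 in SUN1L cells and 0.35 in KDEL cells without that library, against 1.34 and 0.54 for all miRNAs. Whether the effect of SUN1L differed between gels was tested with an interaction term. limma called 0 members both with all libraries and without that one, with 0.208% of all miRNAs called in each fit. Unadjusted p-values were under 0.05 for 6 and 26 members, and edgeR called 0 in both. In the 12 untreated libraries, with the run of library numbers in the titles as a covariate, 9 members were called, all with a more positive SUN1L effect on 308 kPa, beside 14.1% of all miRNAs, and 0 in the same libraries without the covariate. The lowest p was that of miR-3102-5p.2-5p, 1.85 ± 0.56 with an adjusted p of 0.49, and 0.0529 without that library. Next came miR-1224-5p (2.59 ± 0.87, adjusted p = 0.757) and miR-1934-3p (1.72 ± 0.61, adjusted p = 0.783).

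**Figure D4:**
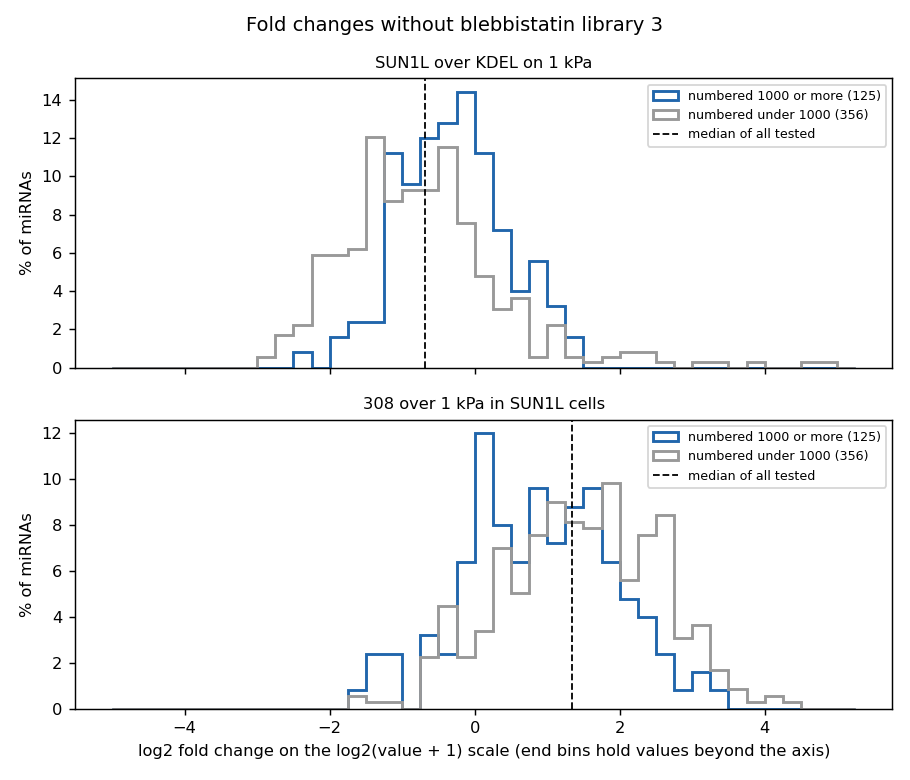
Distribution of log2 fold changes without blebbistatin library 3, as a percentage of miRNAs, for the 125 members and 356 earlier miRNAs, in SUN1L against KDEL cells on 1 kPa and in SUN1L cells on 308 against 1 kPa, with the median of all 481 dashed (−0.68 and 1.34). On this deposited log2(value + 1) scale, which shrinks the changes of scarce miRNAs, the members' medians were −0.31 and 0.88, and after median-of-ratios scaling they were 0.31 and −0.37.

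The drug groups ask what loss of contractility did in KDEL cells on stiff gels. For blebbistatin against untreated cells limma called 0 of 125 members, beside 0.0% of all miRNAs, with 9 at an unadjusted p under 0.05, while edgeR called 0 and DESeq2 called 13. Without library 3, which left 2 against 3, it called 0, beside 0.0%, with 6 at an unadjusted p under 0.05 and 0 by edgeR. The members' median was −0.53 with that library and 0.10 without it, so the direction of the median rested on it. For Y27632 against untreated cells limma called 0 with all libraries and 0 without that one, beside 0.0% each, with 4 and 15 members at an unadjusted p under 0.05 and 0 by edgeR in both. DESeq2 on all libraries called 0. The 3 members of lowest p with Y27632 were miR-6966-3p (1.48 ± 0.57, adjusted p = 0.943), miR-3069-5p (1.28 ± 0.54) and miR-1943-3p (1.26 ± 0.55). For blebbistatin they were miR-3089-3p (−1.18 ± 0.41, adjusted p = 0.348), miR-1955-3p (−1.68 ± 0.59) and miR-6900-3p (1.79 ± 0.67), which without library 3 were −0.69 ± 0.32, −0.74 ± 0.38 and 1.09 ± 0.61. The median for Y27632 was 0.42 for members and 0.43 for all miRNAs. miR-1983 had 1251, 2941 and 2602 with Y27632, against 975, 1347 and 1055 in untreated cells, and the groups overlapped.

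Several members that were high or low in SUN1L cells on 1 kPa were so in blebbistatin library 3 as well. Its values for miR-1981-5p, miR-1964-3p, miR-5099, miR-7648-3p and miR-3474 were 4908, 2241, 326, 119 and 55.5. These were 6.38, 10.4, 6.98, 21.3 and 9.39 times the mean of the other blebbistatin libraries, and 21 members in all were above that mean. At the low end it had 14.2 for miR-1983 and 16.8 for miR-3068-5p, against 1676 and 1624, and 1096 and 1079, in the other blebbistatin libraries. Its depth was the lowest and its title carries the library number 34, outside the run of 37 to 54 that holds the others. What set it apart was not tested. Across the 105 members with a sequence, the Spearman correlation of GC content with its log2 ratio was 0.19, and with the SUN1L fold change on 1 kPa it was 0.04. These points share libraries and base composition and are a description.

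Asked as any difference among the 6 groups, limma called 6 members with all libraries, beside 6.65% of all miRNAs, and 66 without blebbistatin library 3, beside 73.6%. The 6 were miR-1934-3p, miR-7063-5p, miR-3102-5p.2-5p, miR-3069-5p, miR-3102-3p.2-3p and miR-3112-5p. miR-1934-3p, with the lowest p of these (adjusted p = 0.00816), had 21.6, 16.3 and 11.5 in SUN1L cells on 308 kPa, 2.07, 1 and 2.00 in SUN1L cells on 1 kPa, 11.999, 12.7 and 5.16 with blebbistatin, 5.57, 21.0 and 11.3 with Y27632, 13.98, 12.7 and 9.16 in untreated KDEL cells on 308 kPa and 5.86, 5.32 and 5.39 in KDEL cells on 1 kPa. SUN1L cells on 1 kPa were the lowest group and did not overlap with any other. miR-7063-5p had 10.2, 6.80 and 10.6 in SUN1L cells on 308 kPa, 5.18, 3.56 and 1.33 in SUN1L cells on 1 kPa and 1.68, 2.13 and 2.31 in KDEL cells on 1 kPa. miR-3112-5p, at the edge of the cut, reached 10 in 3 libraries, at 12.3 and 12.3 with Y27632 and 12.7 in untreated KDEL cells on 308 kPa. miR-3069-5p reached 10 in 4 libraries, all of them treated with a drug. Without Y27632 cells, in which both were highest, neither would have met the cut, so their calls in this test carry no weight. Ranked by group means without that library, 64 members were highest in Y27632 cells, 24 in SUN1L cells on 308 kPa and 20 in SUN1L cells on 1 kPa, and 73 (58.4%) were lowest in SUN1L cells on 1 kPa, 22 in blebbistatin cells and 19 in KDEL cells on 1 kPa. The earlier miRNAs had 244 of 356 highest in Y27632 cells and 269 lowest in SUN1L cells on 1 kPa. Many of these neighbouring group means did not differ beyond their spread, as the counts of calls show.

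Shares of a library's own reads scale each library by its total, which is 1 choice of scaling. On the deposited scale the snoRNA members summed to 7703, 8024 and 8458 in Y27632 cells, against 7622, 6694 and 7209 in SUN1L cells on 1 kPa. The order given next holds for shares and not for that scale. The 14 snoRNA members together took 0.128% to 0.143% in SUN1L cells on 308 kPa and 0.128% to 0.204% in SUN1L cells on 1 kPa. The ranges were 0.120% to 0.126% in the other 2 blebbistatin libraries, 0.105% to 0.119% in Y27632 cells, and 0.105% to 0.120% and 0.108% to 0.125% in KDEL cells on 308 and 1 kPa. By share, every SUN1L library was therefore above every KDEL library but blebbistatin library 3, which had 0.206%. Without miR-3535 alone the ranges overlapped, with 0.104% to 0.124% and 0.0923% to 0.113% in SUN1L cells on 308 and 1 kPa, against 0.0849% to 0.105% and 0.0791% to 0.0993% in KDEL cells on 308 and 1 kPa. The 27 splice-site members took 0.0357% to 0.100% in SUN1L cells on 1 kPa, against 0.0229% to 0.0301% in KDEL cells on 1 kPa, and 0.0271% to 0.0353% in SUN1L cells on 308 kPa, against 0.0232% to 0.0293% in KDEL cells on 308 kPa. On stiff gels these ranges overlapped. Blebbistatin library 3 had 0.292%. On soft gels the separation rested on miR-1981-5p: without it the other 26 took 0.0114% to 0.0135% in SUN1L cells on 1 kPa, against 0.00778% to 0.0126% in KDEL cells on 1 kPa, which overlapped, and 0.0129% in blebbistatin library 3. These classes were formed with the values known, and no test was run on them.

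The 2 arms of a hairpin also compare within a library. Members supplied 20 such pairs from 19 hairpins with 39 member arms, miR-3102 giving 3. The 5p arm was the higher by mean in 12 and the 3p arm in 8, the ratio of means ran from 1.21 to 24.7, and the same arm was higher in all 18 libraries for 12 pairs. In SUN1L against KDEL cells on 1 kPa the ratio of higher to lower arm was higher in every SUN1L library for 3 pairs and lower in every one for none (0), where 24.7% of 154 pairs in the table were higher without overlap and 19.5% lower. In SUN1L cells 8 pairs had a lower ratio in every library on 308 kPa than in any on 1 kPa, and 3 a higher one, where 34.4% of 154 were lower without overlap and 24.7% higher. The 8 of 20 lower were thus near the share over all pairs.

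The clearest were miR-1981 and miR-1198. The ratio of miR-1981-5p to miR-1981-3p was 22.2, 66.6 and 23.5 in SUN1L cells on 1 kPa, against 18.1, 10.25 and 6.48 in KDEL cells on 1 kPa, and 18.8, 8.36 and 6.58 in SUN1L cells on 308 kPa. That of miR-1198-5p to miR-1198-3p was 40, 121 and 43 in SUN1L cells on 1 kPa, against 6.30, 28.5 and 15.6 in KDEL cells on 1 kPa. miR-1198-5p itself differed little, with 124, 143 and 200 in SUN1L cells, against 106, 182 and 239 in KDEL cells, and overlapped, whereas the 3p arm, at 1 to 7 reads, was lower. miR-3068 went the other way: its 5p to 3p ratio was 1.34, 1.34 and 1.20 in SUN1L cells on 308 kPa, against 0.77, 0.86 and 0.88 on 1 kPa, so that the more abundant arm changed with the gel. In blebbistatin library 3 these ratios were 181 for miR-1981, 157 for miR-1198 and 0.32 for miR-3068.

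**Figure D5:**
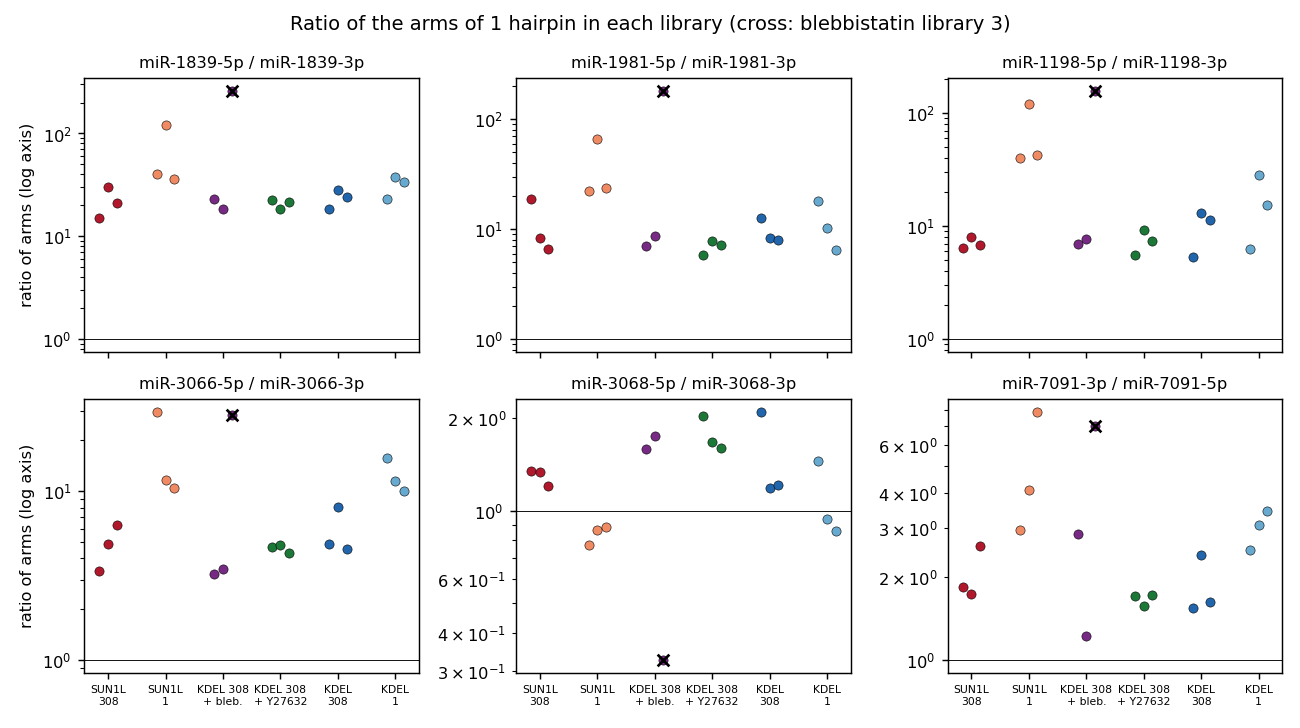
Ratio of the more to the less abundant arm (log axis) of 6 hairpins in each of 18 libraries, by group, with a cross on blebbistatin library 3 and a line at 1. For miR-1981 and miR-1198 the 3 SUN1L libraries on 1 kPa lie above all KDEL libraries on 1 kPa, and for miR-3068 they lie under 1.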

How the data were processed

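Small RNA libraries from 6 groups of 3, which the study calls biological replicates, were compared. Per the study's methods, the authors trimmed the 3′ adapter, dropped reads under 15 bases and those of low quality, and quantified miRBase release 20 miRNAs in AvadisNGS. This was done per gene and per active region, the latter only from reads whose 5′ end matched a mature annotation. Candidates of low count were also filtered. Which of these levels the deposited values hold is not stated there. The deposited signal values are normalized per library by a method not given in the sources used here, with a floor of 1. Values above it were whole multiples of 1 factor per library (100% within 0.001 times the read count). That tolerance is loose at high counts, so the check rests on the low values. This gave whole reads of 1361360 to 8485822 per library, and 1 read was worth under 1 in 8 libraries. The labels name mm9, but the positions matched GRCm38 for 105 of 105 members with a sequence.

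The main test was limma 3.58.1 (trend) in R 4.3.3 on log2(value + 1) over 481 miRNAs and 18 libraries, with Benjamini-Hochberg adjustment at 0.05. Fold changes are on that scale, which understates those of low miRNAs. edgeR 4.0.16 (quasi-likelihood) and DESeq2 1.42.0 were run on the recovered reads. The members and lists were chosen with earlier results of these data known. Named members were the 10 most abundant, miR-5099, miR-1198-3p, miR-1934-3p and miR-3110-5p, up to 10 called of lowest p per comparison or else the 3 of lowest p, arms of 1 hairpin, and those at the edge of the cut. miR-3474, miR-6979-3p, miR-6900-3p and the members named for their sequence were chosen after their values were seen. Alternatives covered pseudocount, filter, scaling, array weights, the samples fitted, a covariate for the run of library numbers, and leaving out each library. On simulated data for SUN1L against KDEL cells on 1 kPa, 25.0% of members changed 2-fold, 85.7% of those changed 4-fold and 24 of 24 changed 8-fold were recovered. Among all tested miRNAs, 31.7% of those changed 2-fold and 90.3% of those changed 4-fold were recovered. The simulation drew every library from 1 mean profile with a fixed dispersion, so it lacked the departure of blebbistatin library 3. These rates therefore do not give the recovery in the real fit of 18 libraries.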

Additional observations from a re-analysis of the deposited data

How the results depend on the processing

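Counts of members called moved with the samples and scaling. For SUN1L against KDEL cells on 1 kPa (0 called) quantile scaling and DESeq2 gave 4 each, the compared groups alone 5, array weights 18, the covariate 28 and the 12 untreated libraries 23. On 308 kPa (0) array weights gave 6 and the covariate 1. For 308 against 1 kPa in KDEL cells (0) the compared groups alone gave 13, array weights 40 and the covariate 13. In SUN1L cells (7) no filter gave 2, a stricter filter 3, edgeR 3, DESeq2 23, the compared groups alone 57, array weights 64, the covariate 68 and the 12 untreated libraries 66. The interaction (0) gave 10 with array weights and 9 with the covariate, blebbistatin (0) 13 with DESeq2 and 4 with array weights, and Y27632 (0) 38 with array weights. Any difference among groups (6) gave 10 with a pseudocount of 5, 3 with a stricter filter, 10 with median-of-ratios scaling, 15 with quantile scaling, 15 with edgeR and 87 with array weights, whose fit warned of no convergence.

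Without the third blebbistatin library, and with median-of-ratios, quantile scaling or edgeR, chosen after seeing the data, as was the fit of the 12 untreated libraries without a covariate, the counts were 31, 31 and 29 for SUN1L on 1 kPa, 2, 1 and 1 for stiffness in KDEL cells, 56, 62 and 52 for stiffness in SUN1L cells, and 57, 63 and 58 for any difference. Leaving out 1 library at a time gave 0 to 28 for SUN1L on 1 kPa, 0 to 4 for stiffness in KDEL cells, 2 to 70 for stiffness in SUN1L cells and 1 to 66 for any difference, the upper ends all without that library, and 0 throughout for the other 4. The cause was not tested. Over 822 values for 25 pairs of a called member and its comparison, 603 kept their call or lack of one, 127 gained one, 92 lost one and 0 changed direction. miR-1839-5p, which changed direction with scaling for stiffness in SUN1L cells, is not among those 25. The covariate is also the replicate block, since accession order and library numbers coincide in the 12 untreated libraries. Deviations from the group means correlated at 0.0971 to 0.541 over 18 pairs of libraries of 1 run, and 12 of 12 libraries were closest to their own run, a hint from the data and not from the design.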
